A study of Mus musculus with 24 samples.

Results

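The alpha (TCRα) and beta (TCRβ) repertoires of the same tumor were compared in all 24 tumors of the series, with 1 TCRα and 1 TCRβ table for each tumor. All 24 of the 24 tumors had both tables and entered the comparison. Every tumor was grown from CT26.CL25, a transplantable BALB/c colon carcinoma line, under the skin of both flanks of 12 female BALB/c mice, obtained at 7 to 9 weeks of age and kept for at least 1 week before use, so all tumors share 1 cell line and no tumor arose in place. Receptor RNA was amplified from RNA of the whole tumor. In 3 time-matched mice (mice 6, 12 and 14) both tumors were harvested 13 days after inoculation without treatment. In 3 time-separated mice (mice 4, 17 and 19) 1 tumor was excised and the remaining tumor was taken 11 days later, without decitabine. In 3 further mice (mice 3, 11 and 20) the same excision was followed by decitabine, an inhibitor of DNA methyltransferases, at 0.5 mg/kg on 5 consecutive days, and in 3 mice (mice 7, 10 and 16) by decitabine at 2 mg/kg on 5 consecutive days. The sample names tell the tumors apart as 1 and 2 but not by which was excised first, so a difference between tumor 1 and tumor 2 has no direction in time. In the 9 mice with separate harvests the tumor numbers and the harvest times cannot be told apart.

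A conventional T cell reads antigen through a receptor made of an alpha and a beta chain. The complementarity determining region 3 (CDR3) of each chain lies at the join of its V and J segments, and of a short D segment in between for beta, and it makes most of the contact with the bound peptide. The beta chain is rearranged first and nearly every T cell keeps a single functional beta, whereas alpha rearrangement goes on for longer and can involve both chromosomes, so that a T cell may carry an additional alpha transcript. RNA from whole tissue holds the alpha and beta transcripts of all T cells in a common pool, so the partners are not known. Fewer T cells of a clone and less receptor RNA per cell also cannot be told apart. A clonotype was a CDR3 amino acid sequence with its V and J segment, found with at least 2 counts and without the mark for a stop codon or a shifted frame, and its share is the percentage of the retained counts of its chain in that tumor.

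The CDR3 sequences on which the comparison turned are shown first, as the most abundant nucleotide sequence of each clonotype, read from the first to the last CDR3 codon. Capitals mark the middle of the CDR3 and the 4 codons at each end are in lower case. In mouse 6 the chains differed most in the share of the largest clonotype of each tumor, and in mouse 10 least. Shown for each chain is the clonotype with the highest mean share over both tumors, which in mouse 10 was not the largest beta clonotype of tumor 2.

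Mouse 6, largest beta, TRBV17 and TRBJ2-1: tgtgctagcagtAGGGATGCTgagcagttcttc
Mouse 6, largest alpha, TRAV9-1 and TRAJ40: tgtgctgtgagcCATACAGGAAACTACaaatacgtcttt
Mouse 10, largest beta, TRBV17 and TRBJ1-6: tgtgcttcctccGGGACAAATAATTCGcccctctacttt
Mouse 10, largest alpha, TRAV3-3 and TRAJ13: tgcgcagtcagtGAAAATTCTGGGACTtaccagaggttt

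The next 6 pairs are an alpha and a beta clonotype of the same mouse whose shares were close in both tumors and differed 2-fold or more between the tumors. They are shown as candidate partners, chosen by their shares alone.

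Mouse 3, beta, TRBV19 and TRBJ2-1: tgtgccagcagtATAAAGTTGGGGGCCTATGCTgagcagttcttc
Mouse 3, alpha, TRAV3-3 and TRAJ15: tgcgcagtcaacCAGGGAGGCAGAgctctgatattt
Mouse 3, beta, TRBV13-2 and TRBJ2-7: tgtgccagcggtCCTACTgaacagtacttc
Mouse 3, alpha, TRAV7-4 and TRAJ12: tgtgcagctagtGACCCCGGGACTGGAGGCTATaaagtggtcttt
Mouse 11, beta, TRBV5 and TRBJ2-4: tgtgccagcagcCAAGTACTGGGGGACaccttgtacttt
Mouse 11, alpha, TRAV14-1 and TRAJ45: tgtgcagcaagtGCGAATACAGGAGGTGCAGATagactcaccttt
Mouse 16, beta, TRBV13-3 and TRBJ2-1: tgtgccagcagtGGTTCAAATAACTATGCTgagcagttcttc
Mouse 16, alpha, TRAV9D-4 and TRAJ9: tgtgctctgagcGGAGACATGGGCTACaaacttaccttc
Mouse 19, beta, TRBV4 and TRBJ1-1: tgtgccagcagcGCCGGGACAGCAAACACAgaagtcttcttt
Mouse 19, alpha, TRAV12-1 and TRAJ30: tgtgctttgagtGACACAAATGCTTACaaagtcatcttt
Mouse 20, beta, TRBV13-3 and TRBJ2-5: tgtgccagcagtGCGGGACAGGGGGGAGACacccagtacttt
Mouse 20, alpha, TRAV7-1 and TRAJ49: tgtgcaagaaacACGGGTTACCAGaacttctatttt

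Retained counts per tumor ran from 26623 to 846655 for TCRα (median 159256) and from 63291 to 887567 for TCRβ (median 206450), and TCRα had fewer than TCRβ in 20 of 24 tumors. The summary measures of a repertoire and its mean CDR3 length were taken at a common depth of 26623 retained counts, that of the TCRα table of mouse 7 tumor 2, the shallowest of all 48. The shares of single clonotypes and of each CDR3 length were taken from the full tables. Both tables of a tumor came from the same RNA extract, and each was a single table without a technical replicate. The counts are not independent molecules where reads of a molecule were counted more than once, so intervals cover counting error only. The sequences with the stop or frame mark, left out here, held 8.99% to 27.7% of all TCRα counts and 6.78% to 9.65% of all TCRβ counts, and their share was higher in TCRα in 24 of 24 tumors.

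TCRβ repertoires were more concentrated on their largest clonotypes than TCRα repertoires of the same mice, although the single largest clonotype was not consistently larger in either chain. The 10 largest clonotypes held 52.0% ± 13.1 (SD, n = 12 mice) of TCRα counts and 63.8% ± 12.3 of TCRβ counts. The difference was -11.8 percentage points ± 10.8, with the larger value in TCRβ in 11 of 12 mice (exact sign-flip test, two-sided, adjusted p = 0.0026 over 8 measures). Over the 24 tumors the 10 largest held 15.5% to 82.8% of TCRα counts (median 53.9%) and 30.2% to 86.0% of TCRβ counts (median 64.7%), so the chains overlapped across tumors, while within a tumor TCRβ was higher in 19 of 24. Mouse 12 was the exception among the mice, at 82.2% for TCRα and 80.6% for TCRβ.

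The largest clonotype held 15.8% ± 6.79 (SD, n = 12 mice) of TCRα counts and 21.0% ± 12.8 of TCRβ counts, a difference of -5.27 points ± 14.5 that did not pass the test (exact sign-flip test, adjusted p = 0.27) and was -1.53 points without mouse 6. TCRβ had the larger value in 14 tumors and TCRα in 10. Mouse 6 stood at the lower end of the differences with -46.4 points. Its largest beta clonotype, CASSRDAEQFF with TRBV17 and TRBJ2-1, held 56.1% of TCRβ counts in tumor 1 (95% Clopper-Pearson interval 56.0 to 56.2) and 56.2% in tumor 2. Its largest alpha clonotype, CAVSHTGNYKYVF with TRAV9-1 and TRAJ40, held 9.51% (interval 9.39 to 9.64) and 10.1%. No alpha clonotype of mouse 6 came near the share of its largest beta clonotype, while the beta clonotype of rank 2, with TRBV4, TRBJ2-1 and a CDR3 of 15 residues, held 9.42% and 7.38%. Mouse 16 followed with -15.1 points, its largest beta clonotype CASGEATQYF with TRBV13-2 and TRBJ2-5 at 30.002% and 33.1% and its largest alpha clonotype, with TRAV9D-4 and TRAJ53, at 15.2% and 17.9%.

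Mice 6 and 16 also had the largest shares of TCRα counts with the stop or frame mark, a comparison made after their values were seen. These were 25.3% and 24.4% in the tumors of mouse 6 and 27.7% and 24.2% in those of mouse 16, against a median of 13.2% over the 24 tumors, and the next highest was 21.8% in mouse 7 tumor 2. In mouse 6 the most abundant alpha sequence of any kind carried the mark, used TRAV8-1 and TRAJ48, had a CDR3 of 34 bases, and held 11.8% and 9.27% of all TCRα counts, above the most abundant unmarked sequence at 6.76% and 7.23%. In mouse 16 a marked sequence with TRAV3-3, TRAJ42 and 44 bases held 7.50% and 6.08%. The largest marked beta sequence of any tumor held 2.66% of all TCRβ counts. The part of marked alpha transcripts in the difference between the chains was not tested.

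In mouse 10 the clonotypes with the highest mean share over both tumors were within 2-fold in each tumor. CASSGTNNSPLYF with TRBV17 and TRBJ1-6 held 18.9% of TCRβ counts in tumor 1 and 13.9% in tumor 2, and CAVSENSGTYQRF with TRAV3-3 and TRAJ13 held 16.0% and 21.1% of TCRα counts. The beta clonotype was lower and the alpha clonotype higher in tumor 2, with log2 ratios of -0.44 and 0.40, so like shares did not go with like changes in this mouse.

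**Figure D1:**
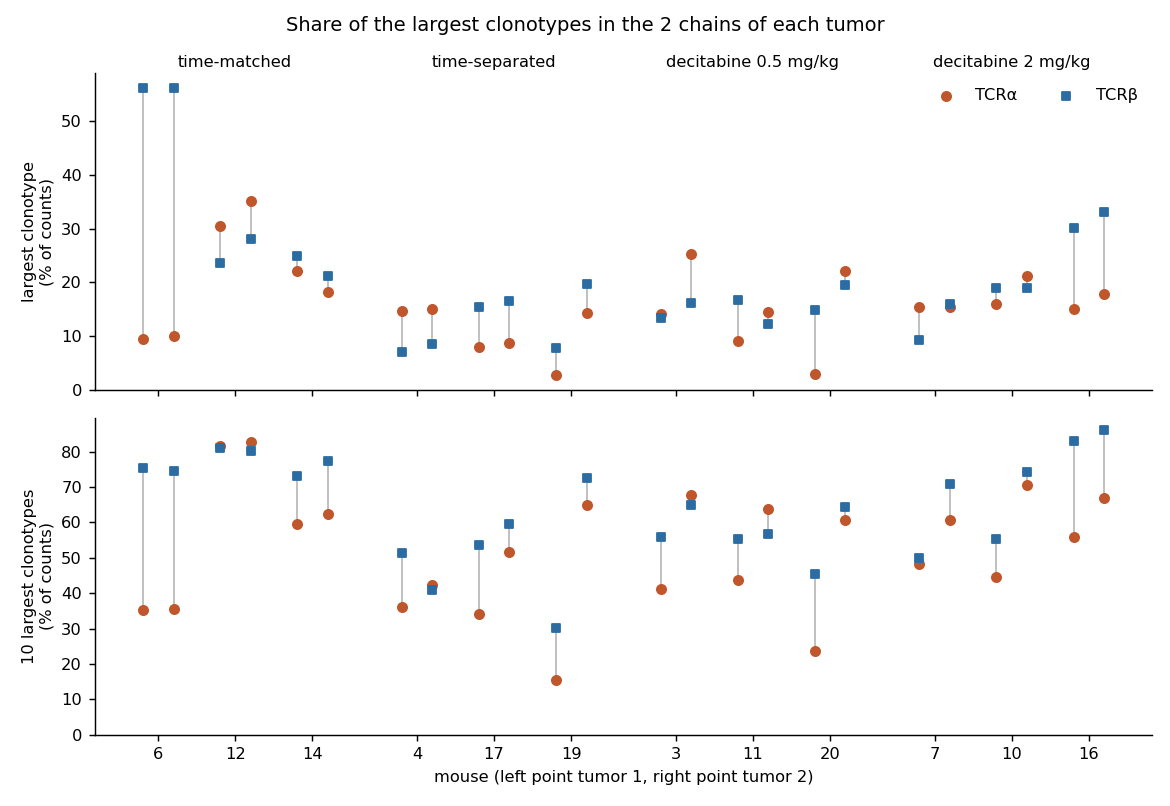
Share of the largest clonotype (top) and of the 10 largest clonotypes (bottom) in percent of counts at the common depth, for TCRα (circles) and TCRβ (squares) of each tumor, with a grey line joining the chains of a tumor and mice ordered by group. The largest TCRβ clonotype of mouse 6 stands apart at 56.2%, and in the lower panel TCRβ lies above TCRα in 19 of 24 tumors.

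The whole distribution of shares gave the same order of the chains. The normalized Shannon index, which is 1 when all clonotypes have equal shares, was 0.633 ± 0.0851 (SD, n = 12 mice) for TCRα and 0.549 ± 0.0918 for TCRβ, higher for TCRα in 11 of 12 mice (exact sign-flip test, adjusted p = 0.0026). The difference ranged from -0.022 in mouse 12 to 0.327 in mouse 6. The Gini coefficient, which approaches 1 as counts gather in few clonotypes, was 0.853 ± 0.0373 for TCRα and 0.882 ± 0.0359 for TCRβ, lower for TCRα in 11 of 12 mice (exact sign-flip test, adjusted p = 0.0026). The number of clonotypes above 1% of counts was nearly equal, 13.8 ± 2.27 and 13.5 ± 3.34 (exact sign-flip test, adjusted p = 0.75). When tumor 2 alone was used, the differences in the share of the 10 largest, the Shannon index and the Gini coefficient kept their sign and no longer passed the test. With single-count sequences kept the difference in Gini coefficient was -0.0125 and did not pass (exact sign-flip test, adjusted p = 0.20).

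TCRα held slightly fewer clonotypes at equal retained counts, 1309 ± 244 against 1430 ± 226 (SD, n = 12 mice), or 0.908-fold. TCRα was lower in 10 of 12 mice, the other two being mice 6 and 16 (log2 ratio -0.14 ± 0.18, exact sign-flip test, adjusted p = 0.037). The log2 ratio was -0.30 when both tables of a tumor were thinned to the smaller of them and -0.40 without thinning (exact sign-flip test, adjusted p = 0.0026 for each), so its size depended on the thinning. The minimum of 2 counts was applied before thinning, when TCRα tables were the shallower in 20 of 24 tumors. This call was the least stable of those that passed, since it was lost without mouse 3, 4, 7, 11, 12 or 19, with adjusted p-values from the exact test of up to 0.074, and when single-count sequences were kept (adjusted p = 0.42). Mouse 3 had the largest gap, with 892 TCRα and 1321.5 TCRβ clonotypes.

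Mice that had an uneven or a clonotype-rich repertoire in 1 chain tended to have it in the other. Over the 12 mice the number of clonotypes correlated between the chains on the log2 scale (Pearson's r = 0.81, permutation p = 0.00038, adjusted p = 0.00095 over 10 correlations, and Spearman's rho = 0.87, permutation p = 0.00045). Without mice 4 and 16, the farthest from the median, r was 0.88 (permutation p = 0.00088), and within the 9 mice with separate harvests it was 0.84 (permutation p = 0.0012). The Gini coefficient gave r = 0.76 (permutation p = 0.0041, adjusted p = 0.0081) and rho = 0.72 (permutation p = 0.01), with r = 0.68 without mice 16 and 19 and r = 0.90 within the 9 mice.

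The Shannon index did not pass over all mice (r = 0.48, permutation p = 0.11, adjusted p = 0.15, rho = 0.39, permutation p = 0.21), and mouse 6 decided this value. In mouse 6 the index was 0.725 for TCRα, the highest of all mice, and 0.398 for TCRβ, the lowest. Without mouse 6 r was 0.82 (permutation test, adjusted p = 0.0011), without mice 6 and 16 it was 0.93 (permutation p = 6e-05), and when the largest clonotype of every table was left out it was 0.85 (permutation test, adjusted p = 1e-04). The share of the largest clonotype showed no relation between the chains (r = -0.00054, permutation p = 1, rho = 0.29, permutation p = 0.37), and r was 0.67 without mice 6 and 16 (permutation p = 0.038) and 0.22 within the 9 mice (permutation p = 0.61).

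The difference between tumor 2 and tumor 1 of a mouse was shared by the chains for the summary measures. For the log2 clonotype number r was 0.92 over 12 mice (permutation p = 1e-05, the smallest that the permutations can give, adjusted p = 5e-05) and rho was 0.97 (permutation p = 2e-05), with the same sign in both chains in 10 of 12 mice. Mouse 7 had the largest difference, 3.64-fold fewer TCRα and 2.86-fold fewer TCRβ clonotypes in tumor 2, and mouse 19 followed with 2.44-fold and 2.07-fold fewer. Tumor 2 of mouse 7 had 26623 TCRα and 64192 TCRβ counts, against 222016 and 283419 in tumor 1. The minimum of 2 counts was applied before thinning, so its TCRα table kept no single counts at the common depth while that of tumor 1 could. Mice 4 and 12 differed in sign between the chains, with log2 ratios of -0.10 and 0.19 in mouse 4 and of -0.025 and 0.027 in mouse 12 for TCRα and TCRβ. For the Gini coefficient r was 0.94 (permutation p = 1e-05, adjusted p = 5e-05) and rho was 0.97 (permutation p = 1e-05), and for the Shannon index r was 0.84 (permutation p = 0.00025, adjusted p = 0.00083) and rho was 0.71 (permutation p = 0.013), with the same sign in 11 of 12 mice. Without the 2 mice farthest from the median r was 0.87, 0.88 and 0.67 for these measures in the order given, and within the 9 mice with separate harvests it was 0.89, 0.92 and 0.81.

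Relations with the retained counts did not pass after adjustment. The log2 change of retained counts between the tumors gave r = 0.69 between the chains (permutation p = 0.013, adjusted p = 0.079 over 6 relations, with rho = 0.69 and permutation p = 0.017), and r was 0.39 without the 2 farthest mice (permutation p = 0.27). The change in clonotype number at common depth against the change in retained counts gave r = 0.62 for TCRα (permutation p = 0.044, adjusted p = 0.13, rho = 0.19, permutation p = 0.56) and r = 0.40 for TCRβ (permutation p = 0.19, adjusted p = 0.31, rho = 0.27, permutation p = 0.4). Without the 2 farthest mice these were 0.26 (permutation p = 0.47) and 0.51 (permutation p = 0.13). The part of sequencing depth in the shared change was not tested further.

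**Figure D2:**
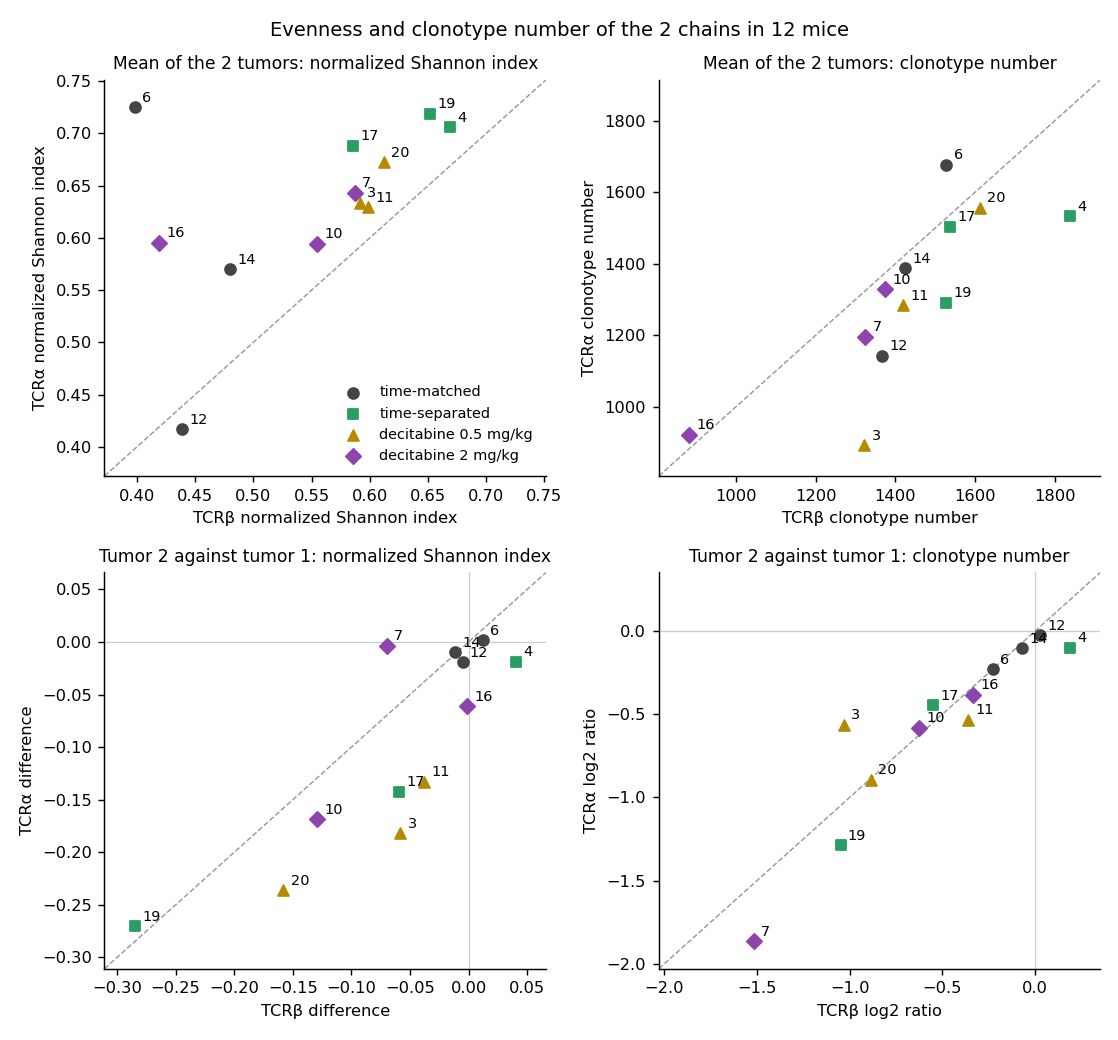
TCRα against TCRβ in 12 mice for the normalized Shannon index (left) and the clonotype number (right), as the mean of the tumors of a mouse (top) and as the difference or log2 ratio of tumor 2 to tumor 1 (bottom), with mouse numbers, symbols by group and a dashed line of equality. Mouse 6 lies far from the other mice in the top left panel (0.725 and 0.398), and in the bottom right panel both chains differ most in mouse 7 (log2 ratios -1.86 and -1.52).

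The change of the largest clonotype was alike in the chains of some mice and unlike in others, and the correlation did not pass. The clonotype was taken as the clonotype with the highest mean share over the tumors, and its log2 ratio of tumor 2 to tumor 1 at common depth correlated at r = 0.089 (permutation p = 0.77, adjusted p = 0.97) and rho = 0.12 (permutation p = 0.71), with r = 0.53 without mice 3 and 7 (permutation p = 0.11) and r = -0.036 within the 9 mice with separate harvests. The sign was the same in 8 of 12 mice, and in 6 of 12 (mice 4, 6, 12, 14, 16 and 17) the log2 ratios of the chains differed by at most 0.5. In mice 6, 12, 14, 16 and 17 the ratios ran only from -0.26 to 0.25 in the full tables, so there was little change to share. Mouse 4 alone of the 6 differed 2-fold or more in both chains. Mice 7 and 11 had the widest gaps. In mouse 7 the largest beta clonotype, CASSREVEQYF with TRBV17 and TRBJ2-7, held 0.606% in tumor 1 and 15.9% in tumor 2, while the largest alpha clonotype, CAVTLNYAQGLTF with TRAV7-3 and TRAJ26, held 15.4% and 15.5%. In mouse 11 the largest beta clonotype, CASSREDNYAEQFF with TRBV17 and TRBJ2-1, held 16.7% and 3.83%, while the largest alpha clonotype, with TRAV6-5 and TRAJ30, held 5.58% and 14.4%. These clonotypes of mouse 7 were thus 25.3-fold apart in tumor 1 and 1.03-fold apart in tumor 2, and in mouse 11 the order of the chains was exchanged. The beta clonotype of mouse 7 ranked 24 in tumor 1, where the largest clonotype held 15.4% in TCRα and 9.26% in TCRβ.

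In mouse 4 the largest clonotypes of the chains moved together but kept unequal shares. The largest alpha clonotype, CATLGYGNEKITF with TRAV8-2 and TRAJ48, held 4.04% and 15.1%, and the largest beta clonotype, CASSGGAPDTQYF with TRBV13-3 and TRBJ2-5, held 2.02% and 8.51%. Their log2 ratios were 1.90 and 2.07 and the alpha share was 2.00-fold and 1.77-fold that of beta.

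The overlap of the tumors of a mouse, by the Morisita-Horn index (0 for no shared clonotypes, 1 for identical shares), tended to agree between the chains (r = 0.63, permutation p = 0.03, adjusted p = 0.0496, and rho = 0.70, permutation p = 0.014). The value was close to the threshold and was lost when any of 10 of the 12 mice was left out. Without mice 3 and 6 r was 0.61 (permutation p = 0.075), and within the 9 mice with separate harvests it was 0.42 (permutation p = 0.26). The time-matched mice had 0.940 to 0.990 for TCRα and 0.968 to 0.999 for TCRβ. Mouse 19 had 0.147 for TCRα and 0.604 for TCRβ, and mouse 7 had 0.878 and 0.545, so either chain could show the lower overlap.

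At a threshold of 0.05 none of the 8 comparisons of the chain difference between groups passed the test. The difference in the largest-clone share was -14.1 points ± 28.4 (SD, n = 3) in time-matched mice and -2.32 ± 6.89 (n = 9) in all others (exact permutation test, p = 0.24, adjusted p = 0.75). Without mouse 6 the difference of these means was 4.36 points in place of -11.8. In decitabine-treated mice it was -2.50 ± 7.10 (n = 6) against -1.96 ± 7.97 (n = 3) in time-separated mice without decitabine (exact permutation test, p = 0.94, adjusted p = 1). Treatment began after the first excision, so 1 of the tumors averaged in each treated mouse was never exposed to decitabine, and the labels do not tell which. The difference in Shannon index was 0.132 ± 0.178 and 0.0678 ± 0.046 in the first comparison (exact permutation test, adjusted p = 0.75) and 0.0674 ± 0.0543 and 0.0687 ± 0.0326 in the second (exact permutation test, adjusted p = 1). The lowest p these designs allow is 0.0045 and 0.012, and with 3 mice in the smaller group a modest difference could have been missed.

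CDR3 lengths differed more in their spread than in their mean. The mean length per clonotype was 13.6 residues ± 0.11 (SD, n = 12 mice) for TCRα and 13.8 ± 0.235 for TCRβ, and per count it was 13.6 ± 0.255 and 13.3 ± 0.631. Neither difference passed (exact sign-flip test, adjusted p = 0.18 for each), though the first passed without mouse 16 (difference -0.17, adjusted p = 0.023), with CDR3s from C to F or W only and in tumor 1 alone. The mean lengths of the chains were unrelated across mice (r = -0.027, permutation p = 0.93, rho = 0.17, permutation p = 0.6), with r = 0.43 without mice 16 and 19 (permutation p = 0.21) and r = -0.11 within the 9 mice. Lengths of 13 to 15 residues held 72.6% ± 3.40 of TCRα clonotypes and 58.1% ± 9.02 of TCRβ clonotypes. CDR3s of 11 or fewer residues made up 4.19% ± 0.787 of TCRα clonotypes, with a range of 2.84% to 5.47% over mice, and 16.5% ± 5.81 of TCRβ clonotypes, with a range of 9.01% to 28.7%. The ranges of the chains did not overlap. Per count the shares were 2.75% ± 1.33 and 31.5% ± 15.6. This cut in length was chosen after the distributions were seen and is given without a test.

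Among the short beta CDR3s the length of 11 residues stood out. A length of 11 held 24.3% of TCRβ counts as the mean of 24 tumors, from 5.11% to 63.9%, and 2.16% of TCRα counts, from 0.242% to 4.86%. Lengths of 10 and 12 held 7.18% and 5.98% of TCRβ counts, so 11 residues formed a peak of its own beside that at 14 residues, with 18.2%. Of the 120 beta clonotypes among the 10 largest of the 12 mice, 29 had 11 residues, at least 1 in each mouse, and 19 of these 29 used TRBV17, as did none of the 9 with 10 residues. TRBV17 was the most frequent V segment among the 120, with 33, and was used by 7 of the 12 largest beta clonotypes. Among the 120 largest alpha clonotypes 1 had 11 residues, and 40 had 13. TRAV12-1 was the most frequent alpha V segment with 12, and TRAJ30 the most frequent alpha J segment with 17. Mouse TRAV genes include near-identical copies, so a count of a TRAV segment is less certain than that of a TRAJ segment.

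**Figure D3:**
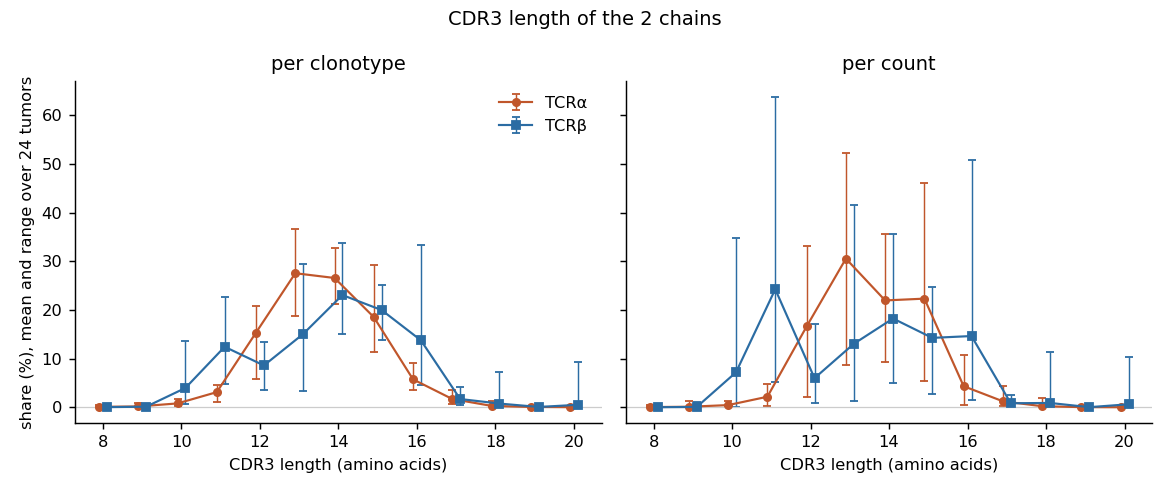
Share of each CDR3 length in amino acids for TCRα (circles) and TCRβ (squares) in the full tables, per clonotype (left) and per count (right), as the mean of 24 tumors with bars from the lowest to the highest tumor. TCRβ has a peak at 11 residues (24.3% of counts) where TCRα has 2.16%.

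Compared rank by rank, with ranks taken within each tumor, the 10 largest clonotypes of the chains had like shares in most tumors. At 210 of 240 ranks the shares of the chains were within 2-fold of each other, and at rank 1 they were so in 19 of 24 tumors. TCRβ had the larger share at most ranks, with TCRα larger at 86 of 240. In mouse 12 all 10 ranks were within 2-fold in both tumors. In mouse 6 the figure was 6 of 10 in each tumor, with rank 1 apart by log2 ratios of -2.56 and -2.48. Since shares fall with rank in any repertoire, like shares at a rank do not by themselves tie an alpha to a beta clonotype.

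**Figure D4:**
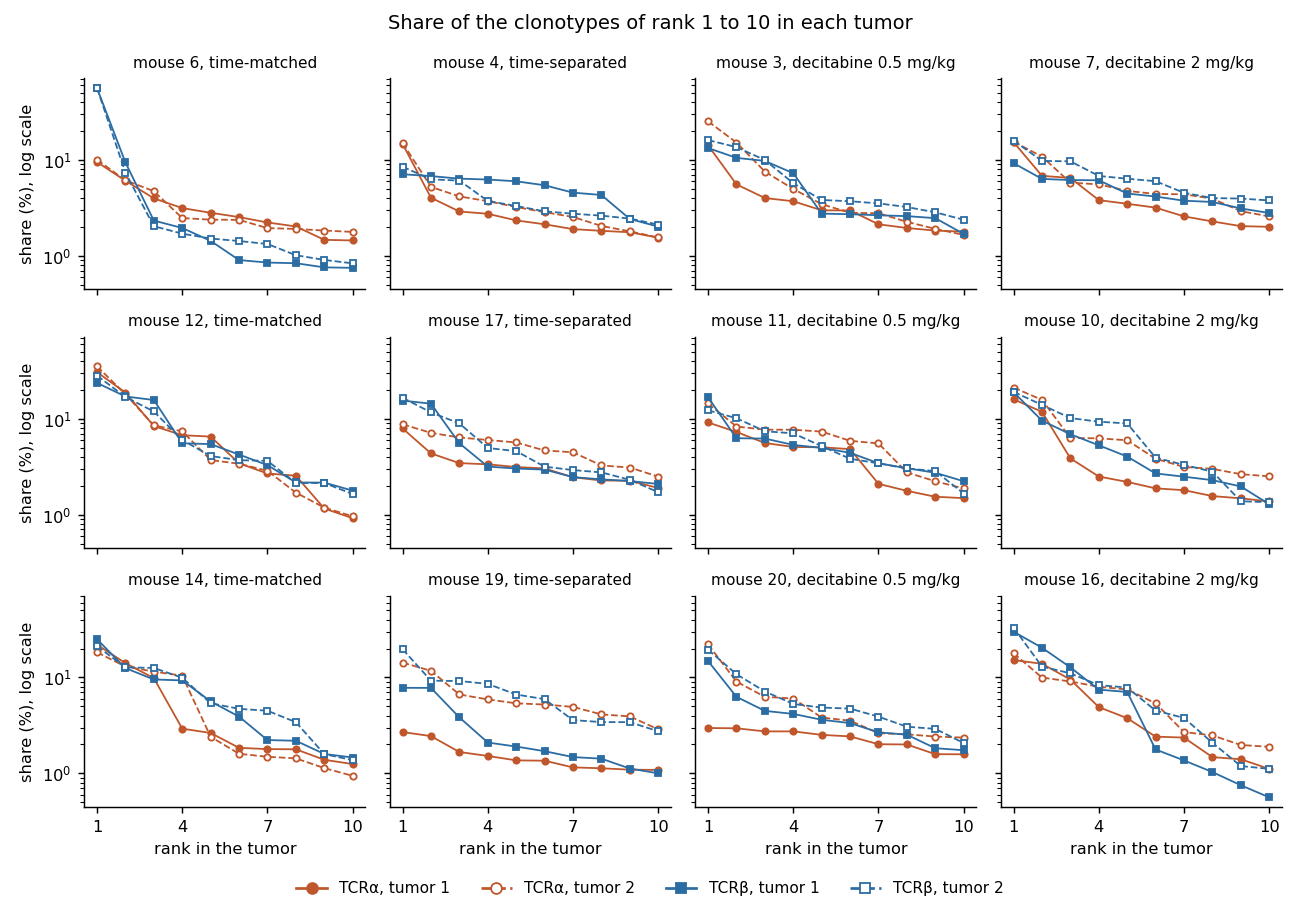
Share in percent (log scale) of the clonotypes of rank 1 to 10 in each tumor, by mouse, for TCRα (circles) and TCRβ (squares) of tumor 1 (filled, solid line) and tumor 2 (open, dashed line). In mouse 12 the chains lie within 2-fold at every rank, and in mouse 6 rank 1 of TCRβ (56.1% and 56.2%) lies far above that of TCRα (9.51% and 10.1%).

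Candidate partners were therefore sought with both tumors. An alpha and a beta clonotype among the 10 largest of a mouse were called share-matched when their shares were within 2-fold in each tumor and their log2 ratios of tumor 2 to tumor 1 differed by at most 0.5. This was met by 147 of 1200 pairs of the same mouse, which is 12.2%. When the alpha clonotypes came from another mouse 7.34% of pairs met it, and 9.96% when they came from another mouse of the same group. The count was 54 in the time-matched, 29 in the time-separated, 33 in the low-dose and 31 in the high-dose mice. In 10 of 12 mice it was above the mean for alpha clonotypes of the other mice, the exceptions being mice 4 and 19, and in 7 of 12 above the mean for the same group. In 1 of 12 mice, mouse 11, it was above the value for every other mouse. The counts are also given by group, without a test. The mean number of matched pairs per mouse was 9.67 against 6.83 with alpha clonotypes of other mice of the group in time-separated mice, 11 against 6.17 at the low dose and 10.3 against 5.33 at the high dose. In the time-separated mice the excess came from mouse 17 (19 against 6), while mice 4 (4 against 4.5) and 19 (6 against 10) were below. At the low dose mouse 20 was below as well (9 against 9.5). The time-matched mice had a mean of 18 matched pairs each against 21.5 with alpha clonotypes of the other time-matched mice. In these mice 1 of 30 alpha and 2 of 30 beta clonotypes differed 2-fold or more between the tumors, against 61 of 120 and 51 of 120 over all mice.

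Of the 120 beta clonotypes, 73 had at least 1 share-matched alpha clonotype, 30 had exactly 1 and 43 had several, so that shares alone left most matched beta clonotypes with more than 1 candidate. The share of matched pairs among those in which both clonotypes differed 2-fold or more between tumors was 13.1% within a mouse (45 of 343), against 9.28% with other mice and 8.82% with other mice of the same group. The largest alpha and the largest beta clonotype of a mouse matched each other in mice 12, 14 and 16 only. In mouse 12 the alpha clonotype with TRAV7-4 and TRAJ15 held 30.6% and 35.1%, and the beta clonotype with TRBV13-2, TRBJ2-5 and 14 residues held 23.6% and 28.1%. In mouse 14 the alpha clonotype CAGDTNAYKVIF with TRAV7-3 and TRAJ30 held 21.9% and 18.3%, and the beta clonotype with TRBV13-1, TRBJ2-4 and 16 residues held 25.0% and 21.2%. At ranks 2 and 3 of mouse 14 the alpha shares were 14.1% and 11.5%, then 9.83% and 13.0%, and the beta shares 12.5% and 9.93%, then 9.53% and 12.6%, so 3 successive ranks matched in both tumors. These matches were not unique. The alpha clonotype of rank 3 also matched the beta clonotype of rank 4, at 9.31% and 12.7%. That of rank 1 also matched the beta clonotype of rank 2, and that of rank 2 the beta clonotype of rank 1.

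A stricter reading kept the pairs in which each clonotype was the nearest to the other in both shares. There were 40 such pairs, with equal ranks in 10, and the alpha share was the larger in 27. In 13 of the 40, from 8 of the 12 mice, both clonotypes differed 2-fold or more between the tumors. The same rule was applied to alpha clonotypes of other mice. It found 3.33 pairs per mouse within a mouse, 2.36 with another mouse and 2.92 with another mouse of the same group, and of those with 2-fold change 1.08, 0.788 and 1.04. In the 9 mice with separate harvests it found 2.89 pairs within a mouse and 2.28 with another mouse of the same group, and 1.44 and 1.39 of those with 2-fold change. Pairs with 2-fold change were thus about as frequent between mice of a group as within a mouse, and the pairs that follow are given as a description of shares. The 6 of these with the highest mean share are those whose sequences are shown above. In mouse 3 the alpha clonotype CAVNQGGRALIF with TRAV3-3 and TRAJ15 held 4.01% and 25.3%, and the beta clonotype with TRBV19 and TRBJ2-1 held 2.65% and 16.1%, with log2 ratios of 2.66 and 2.60. In mouse 11 the alpha clonotype with TRAV14-1 and TRAJ45 held 2.09% and 7.34%, and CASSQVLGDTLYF with TRBV5 and TRBJ2-4 held 2.10% and 7.40%, with log2 ratios of 1.81 and 1.82. This was the closest agreement of the 13 in both tumors.

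The second pair of mouse 3, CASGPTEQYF with TRBV13-2 and TRBJ2-7 and an alpha clonotype with TRAV7-4 and TRAJ12, held 2.48% and 5.73% in beta and 2.99% and 7.56% in alpha. In mouse 19 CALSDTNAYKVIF with TRAV12-1 and TRAJ30 held 0.363% (316 counts, interval 0.324 to 0.405) and 6.64%, and the beta clonotype with TRBV4 and TRBJ1-1 held 0.523% and 9.18%, the widest change of the 6 with log2 ratios of 4.19 and 4.13. In mouse 20 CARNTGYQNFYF with TRAV7-1 and TRAJ49 held 1.58% and 6.03%, and the beta clonotype with TRBV13-3 and TRBJ2-5 held 1.74% and 7.14%. In mouse 16 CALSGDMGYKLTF with TRAV9D-4 and TRAJ9 held 4.91% and 1.49%, and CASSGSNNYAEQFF with TRBV13-3 and TRBJ2-1 held 7.46% and 2.08%, the only pair of the 13 with lower shares in tumor 2. The log2 ratios of alpha and beta differed by a median of 0.12 and at most by 0.43 over the 13 pairs, within the limit of 0.5 that defined them.

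**Figure D5:**
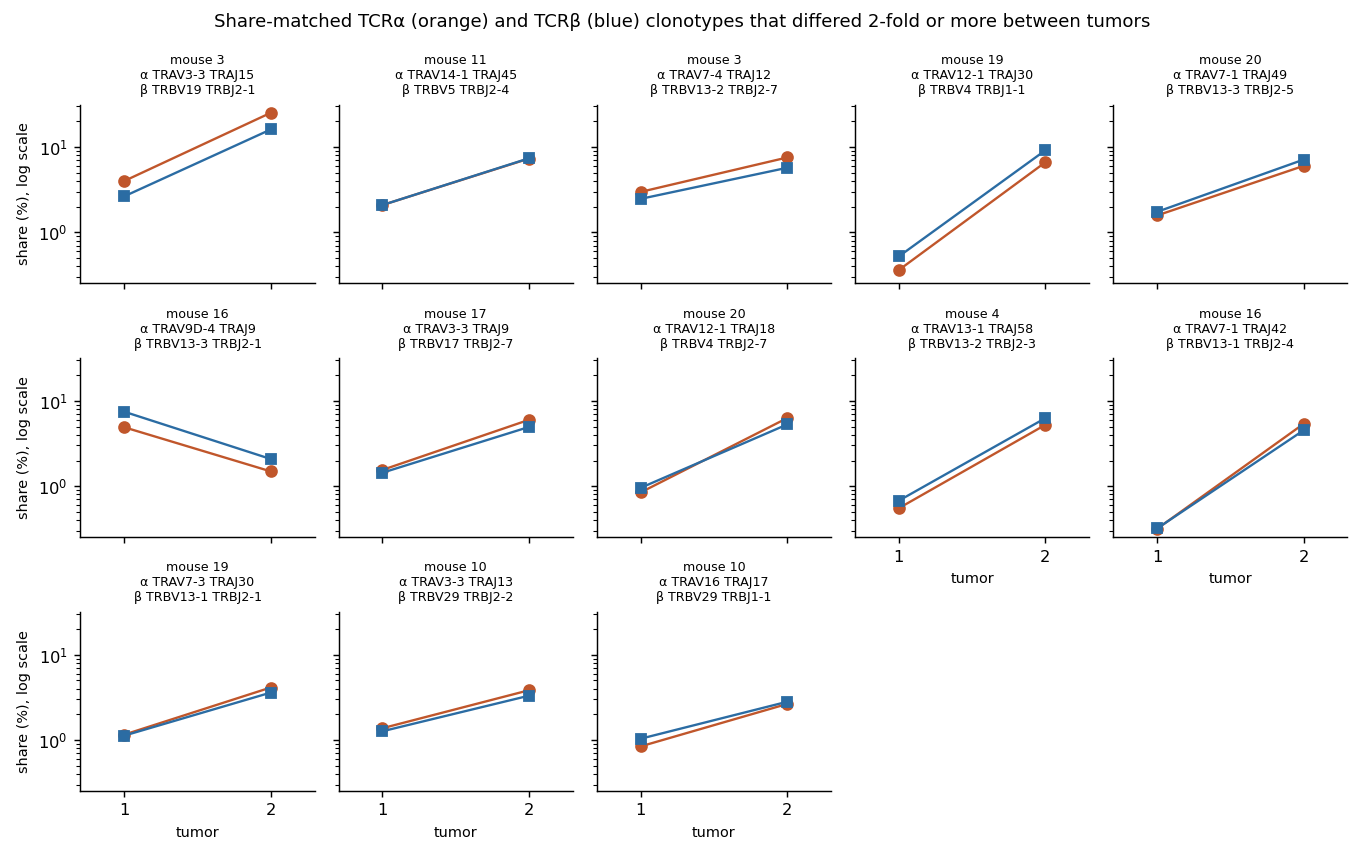
Share in percent (log scale) in tumor 1 and tumor 2 for the 13 pairs of an alpha (orange circles) and a beta clonotype (blue squares) that were each other's nearest in both shares, met the limits for a share-matched pair and differed 2-fold or more between tumors, titled by mouse and V and J segments. In 12 of the 13 panels both shares are higher in tumor 2, and the pair of mouse 11 with TRAV14-1 and TRBV5 overlaps almost completely.

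An alpha CDR3 recurred between mice and in 3 of them had a nearest beta clonotype with the same V segment and a shared residue, a pattern chosen after its values were seen. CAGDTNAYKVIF with TRAJ30 was among the 10 largest alpha clonotypes of mice 12, 14, 17 and 19, the most mice of any alpha CDR3. The nucleotide sequences of the 4 mice are shown because they differ at position 9 of the CDR3 (in capitals), the last base of the codon for glycine, and so encode the same CDR3 by different sequences in mice 12, 14 and 17, while mice 14 and 19 share theirs.

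Mouse 12, alpha, TRAV7-1 and TRAJ30: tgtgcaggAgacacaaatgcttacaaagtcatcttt
Mouse 14, alpha, TRAV7-3 and TRAJ30: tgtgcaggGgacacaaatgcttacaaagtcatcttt
Mouse 17, alpha, TRAV7-3 and TRAJ30: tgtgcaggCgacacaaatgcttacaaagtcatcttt
Mouse 19, alpha, TRAV7-3 and TRAJ30: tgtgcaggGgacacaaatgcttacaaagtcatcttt

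In mice 14, 17 and 19 this alpha clonotype was the mutual nearest of a beta clonotype with TRBV13-1 and tryptophan as residue 6 of the CDR3. Their beta sequences are shown with the middle of the CDR3 in capitals, which includes the tryptophan codon tgg after the first capital codon.

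Mouse 14, beta, TRBV13-1 and TRBJ2-4: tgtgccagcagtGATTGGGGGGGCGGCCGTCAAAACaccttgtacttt
Mouse 17, beta, TRBV13-1 and TRBJ2-5: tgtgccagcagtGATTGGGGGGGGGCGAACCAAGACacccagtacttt
Mouse 19, beta, TRBV13-1 and TRBJ2-1: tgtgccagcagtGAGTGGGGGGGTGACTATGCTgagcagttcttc

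In mouse 14 the shares were those given above for the largest clonotypes. In mouse 17 the alpha clonotype held 3.13% and 4.67% and the beta clonotype 3.02% and 4.59%. In mouse 19 they held 1.15% and 4.12%, and 1.12% and 3.59%. Shares of the alpha and beta clonotype were thus within 2-fold in 6 of 6 tumors, as the rule required. These beta clonotypes also met the limits for a share-matched pair with other alpha clonotypes. Among them were those with TRAV12-1 and TRAJ26 in mouse 14 and with TRAV9D-4 and TRAJ42 in mouse 19. In mouse 17 that with TRAV7-4 and TRAJ49 held 3.35% and 4.47%. In mouse 12 the alpha CDR3, with TRAV7-1, held 8.39% and 8.52% and matched a beta clonotype with TRBV13-1 and tryptophan as residue 6, at 15.7% and 11.9%, and was closer to a matched beta clonotype with TRBV19 and TRBJ2-3, at 5.43% and 6.00%, without being the mutual nearest of either. The alpha clonotype also met the limits for a share-matched pair with beta clonotypes of other kinds, 1 with TRBV17 in mouse 14 and, in mouse 17, 1 with TRBV13-2 and 1 with TRBV13-1 without the tryptophan. Such beta clonotypes were common, 18 of the 120 largest beta clonotypes, and TRAJ30 was used by 17 of the 120 largest alpha clonotypes, in 9 mice. Among the 40 mutual pairs 7 had a beta clonotype of this kind and 7 an alpha clonotype with TRAJ30, and 4 had both. Of these 4, 3 were the pairs of mice 14, 17 and 19 from which the pattern was chosen. The TRAV7-3 form also held 1.47% and 0.0724% in mouse 4 and 0.334% and 0.646% in mouse 6, outside their 10 largest. In mice 3, 10, 11 and 12 it had 0 to 17 counts per tumor, while beta clonotypes of this kind held 1.78% to 21.7% of TCRβ counts. In mice 7, 16 and 20 it was not found, which allows a share of up to 0.0113% in the shallowest of these tumors, while beta clonotypes of this kind held 8.77% to 21.7%. A second alpha clonotype with TRAJ30, the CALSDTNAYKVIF with TRAV12-1 shown above for mouse 19, recurred among the 10 largest of mice 10, 17 and 19 with 1 nucleotide sequence, and its matched beta clonotypes did not share a V segment. They used TRBV29 in mouse 10, TRBV13-1 in mouse 17 and TRBV4 in mouse 19, and the match was mutually nearest in mouse 19 alone. That of mouse 17, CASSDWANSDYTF, also had tryptophan as residue 6, so both TRAJ30 clonotypes matched a beta clonotype of this kind in that mouse.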

How the data were processed

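TCRα and TCRβ sequences were amplified from RNA of 24 whole tumors with a kit that uses molecular identifiers. The authors built a clonotype table for each chain with an immune profiler program, and the deposited read counts per receptor sequence were taken as they stood. The program used the identifiers, but whether the counts are of merged reads, and the genome build, are not given in the sources used here. Sequences with an entry for a stop codon or frame shift were left out, and at least 2 counts were required. Each table was thinned to 26623 counts in 20 draws (seed 20) and the draws were averaged, except for the shares of single clonotypes and CDR3 lengths, which used the full tables. The tumors of a mouse were averaged, and the mouse was the replicate, so p-values measure the spread between mice. Chains were compared by exact two-sided sign-flip tests over mice, which also pairs the chains of a tumor, groups by exact two-sided permutation tests, and correlations by 100000 permuted pairings. P-values were adjusted by Benjamini-Hochberg within each family, at a threshold of 0.05. The log2 ratio of a largest clonotype at common depth used a pseudocount of 1. Named clonotypes and candidate partners were ranked by the mean share of both tumors. The comparison rank by rank and the summary shares of the largest clonotypes ranked clonotypes within each tumor. The members, lists and tests were chosen with earlier results of these data known. The named clonotypes are the largest of each chain in each mouse and the 6 mutual nearest pairs with 2-fold change and the highest mean share. The procedures were tested on simulated data. Tests ran in scipy 1.17.1 under Python 3.11.15, tables were handled with pandas 2.3.3 and numpy 2.4.6, and plots were drawn with matplotlib 3.10.9.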

Additional observations from a re-analysis of the deposited data

Results flagged for a closer look

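Among 40 sets of samples examined, chance flags about 1 in 20. Mouse 16 had a TCRα minus TCRβ difference in normalized Shannon index of 0.176, far above those of the other 8 mice with separate harvests. In mouse 17 tumor 1 the difference in Gini coefficient was -0.0787, far below the other tumors of the time-separated mice. The log2 ratio of TCRα to TCRβ clonotype number was -0.74 in mouse 3 tumor 1, far below the other tumors at the low dose, and -0.41 in mouse 7 tumor 2, far below the other tumors at the high dose. The TCRα table of mouse 7 tumor 2 was the shallowest of all.

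Signal also appeared in the sequences left out of the comparisons. In mouse 6 the most abundant alpha sequence carried the stop or frame mark and held 11.8% of all TCRα counts in tumor 1 and 9.27% in tumor 2, above every unmarked sequence of those tables. The causes of these values were not tested.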

How the results depend on the processing

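Of 621 recomputed values of 28 results, 539 kept their direction and side of the threshold. The correlations of the chains in the level of the Gini coefficient and of clonotype number, and in the change of the Shannon index, Gini coefficient and clonotype number, did so under every alternative run. Ignoring the V segment was chosen after seeing the data. The causes of the values that follow were not tested. Precision was limited by 12 mice and by the depth of the shallowest table.

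Without the pairing of the chains (no replicate block), the differences of -11.8 points for the 10 largest clonotypes, 0.0838 for the Shannon index, -0.0296 for the Gini coefficient and -0.14 for log2 clonotype number did not pass. With tumor 2 alone they were -7.66, 0.0638, -0.0230 and -0.16 and did not pass, and with tumor 1 alone the last was -0.12. With single counts kept the Gini and clonotype differences were -0.0125 and -0.052 and did not pass. The length difference per clonotype passed at -0.16 with CDR3s from C to F or W and at -0.14 with tumor 1 alone.

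The level correlation of the Shannon index passed with tumor 1 alone (0.69) and without the largest clonotype (0.85). That of the largest share changed sign to 0.0022 without thinning, 0.0021 with tables thinned to the smaller of a tumor, 0.024 with single counts, 0.00075 with nucleotide clonotypes, 0.0065 with CDR3s from C to F or W, 0.012 ignoring the V segment and 0.14 with tumor 1 alone. That of length changed sign to 0.024 with single counts, 0.11 with CDR3s from C to F or W, 0.012 ignoring the V segment, 0.022 with tumor 1 and 0.064 with tumor 2 alone. None of these correlations of share or length passed.

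The comparisons between groups, none of which passed, changed sign for decitabine in the largest share (2.31, tumor 2 alone), the Shannon index (0.0014 with single counts, 0.0019 ignoring the V segment, 0.0050 with tumor 1 alone) and log2 clonotype number (-0.031, tumor 1 alone), and for time-matched mice in the Shannon index (-0.0102 without the largest clonotype) and length (-0.0044 with CDR3s from C to F or W, -5.8e-05 with segments of the own chain, -0.0648 with tumor 2 alone).

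Share-matched pairs numbered 357 among the 20 largest of each chain, with 149 beta clonotypes matched, 75 within 1.5-fold and 87 with log2 ratios within 0.25, or 7.44%, 6.25% and 7.25% of pairs against 4.36%, 3.95% and 4.09% between mice.

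Leaving out each mouse in turn gave -0.16 to -0.11 for log2 clonotype number, -0.41 to 0.659 for clonotypes above 1% (below 0 without mouse 6), -0.17 to -0.072 for length, -0.16 to 0.50 for the level correlation of the largest share, 0.32 to 0.82 for that of the Shannon index, -0.17 to 0.35 for that of length, and 0.59 to 0.77 for the Morisita-Horn correlation. Between groups it gave -22.4 to 4.36 (time-matched) and -3.40 to 4.02 (decitabine) for the largest share, -0.0337 to 0.141 and -0.0230 to 0.0155 for the Shannon index, -0.0149 to 0.118 for log2 clonotype number with decitabine, and -0.0800 to 0.0677 for length in time-matched mice.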
